A study of Mus musculus with 12 samples.

Results

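CD8 and CD4 T cells with a naive surface phenotype, high in CD62L and low in CD11a, were compared within pancreatic islets of NOD mice, the strain that develops autoimmune diabetes spontaneously. The animals were female, 12 weeks old and pre-diabetic by the labels, and no group was treated or genetically altered. Live cells staining for the T cell receptor beta chain were sorted from the islets, and each of 4 biological replicates gave a 5′ mRNA library with antibody tags and a T cell receptor library. Whether 1 mouse or several pooled mice stand behind a replicate is not given in the labels, so p-values measure the spread between these 4 libraries, which may be partly technical. A cell barcode entered with at least 500 gene UMIs (unique molecular identifiers, each standing for 1 captured transcript), at most 8% mitochondrial UMIs and 1 UMI or more among the CD3 genes Cd3d, Cd3e and Cd3g. It also needed an antibody count of at least 10 for CD62L and of 20 to 120 for CD11a. Within that window CD8 cells had an antibody CD4 count under 20 and at least 2 UMIs over Cd8a and Cd8b1. CD4 cells had an antibody CD4 count of at least 40, no UMI of Cd8a or Cd8b1 and none of Foxp3. These rules kept 896 CD8 cells (368, 94, 215 and 219 in replicates 1 to 4) and 3599 CD4 cells (1377, 431, 899 and 892), together 4495 of 27423 deposited barcodes.

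CD4 and CD8 T cells arise from a common thymic precursor. Recognition of peptide on MHC class II directs cells to the CD4 helper lineage through the transcription factor ThPOK, which Zbtb7b encodes. Recognition on MHC class I directs them to the CD8 cytotoxic lineage through Runx3. Naive cells of both lineages carry CD62L, which lets them enter lymph nodes, and little of the integrin chain CD11a, which increases after activation. The transcription factors Lef1 and Tcf7 are known for maintaining naive and stem-like T cells.

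The antibody tags that set the gates are shown because every comparison rests on them. Each is the oligonucleotide counted for that antibody, written 5′ to 3′. The CD8b antibody was read through a streptavidin tag, and its count was not used by the rule.
CD4: aacaagacccttgag
CD62L: tgggcctaagtcatc
CD11a: agagtctccctttag
PE on CD8b: aacctttgccactgc

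The CD8b tag, which the rule left out, was present in 86.4, 73.4, 83.7 and 81.3% of CD8 cells and in 13.8, 10.7, 7.9 and 9.53% of CD4 cells. Median antibody counts differed between the lineages inside the window. CD11a had medians of 83.5, 77, 77 and 75 in CD8 cells and of 70, 54, 69 and 63.5 in CD4 cells, and CD62L was also higher in CD8 cells in every library. Median UMIs per cell were 3675 to 5065 in CD8 cells and 2990.5 to 3924 in CD4 cells, and the summed libraries held 501316 to 1525980 and 1744177 to 4879441 UMIs. A 2-UMI limit on Cd8 genes keeps deeper cells and a limit of 0 keeps shallower ones, so the contrast was also computed in cells of 2000 to 5000 UMIs, which called 1133 genes, and with lineages set by antibodies alone, which called 1330. Of the named genes Igfbp4, Mcm3, Mcm5, Prss2 and Try4 lost the call in cells of 2000 to 5000 UMIs (adjusted p = 0.059, 0.078, 0.26, 0.4 and 0.064). Of the barcodes in the window, 534 met neither lineage rule, and 136 of these failed only through a Foxp3 UMI. The CD8 rule had no such limit, and 10 of 896 CD8 cells held a Foxp3 UMI. No doublet caller was run. A second TRB chain was read in 1.6 to 4.86% of CD8 cells and 3.38 to 4.74% of CD4 cells with a TRB chain, and 0 to 4 barcodes of these cells were shared between any 2 libraries.

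As label checks, Cd4 mRNA was 0, 0, 3.17 and 2.44 CPM (UMIs of a gene per 1e+06 UMIs of the sum) in the CD8 sums and 373, 366, 413 and 387 CPM in the CD4 sums. Cd8a, which the rule used, was 856, 662, 840 and 883 CPM in CD8 sums. Of the named markers, Lef1 was high on both sides and Ccr9 and Zbtb7b separated the lineages. The naive phenotype was also visible in Lef1, which the gates did not use. Lef1 averaged 974 and 1096 CPM in the CD8 and CD4 cells here, against 138 and 145 CPM in CD62L-low CD11a-high cells of the same lineages. Tcf7 differed less, at 320 and 427 CPM against 227 and 390 CPM.

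UMI sums of each lineage were compared within libraries. Of 9109 genes tested, 1577 (17.3%) passed an adjusted p of 0.05 by edgeR's quasi-likelihood test, 856 higher in CD8 (9.4%) and 721 higher in CD4 cells (7.92%). The median log2 fold change over all tested genes was 0.006. DESeq2 called 612 genes, 356 higher in CD8 and 256 higher in CD4 cells, and a fit without the library block called 1007. Counts of list members below are descriptions to be read beside the shares over all tested genes, 9.4% higher in CD8 and 7.92% higher in CD4 cells. No set test was run. Fold changes below are CD8 minus CD4 on the log2 scale. Their standard error (SE) is approximate: the absolute log2 fold change divided by the square root of the quasi-likelihood F. The p-value does not follow from this SE alone, and a small SE can go with a larger p, as for Nkg7 below.

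Ccr9, a receptor for the chemokine CCL25 that guides cells to the thymus and small intestine, was 120.6, 104, 113 and 92.8 CPM in CD8 cells and 2.66, 1.15, 1.52 and 1.48 CPM in CD4 cells. The groups did not overlap, and the log2 fold change was 5.85 (SE 0.19, adjusted p = 1.9e-60). At an equal depth of 1500 UMIs per cell, 14.99 ± 3.04% of CD8 cells held a Ccr9 UMI (SD, n = 4 libraries), against 0.34 ± 0.19% of CD4 cells. B cell barcodes, set beside them as another cell type, had 0.06 ± 0.13%. Without thinning the 3 shares were 32.0, 0.54 and 0.51% at median depths of 4116, 3436 and 3724 UMIs, and thinning left out 13 CD8 cells, 157 CD4 cells and 47 B cell barcodes.

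Zbtb7b was 59.4, 60.2, 67.6 and 65.7 CPM in CD4 cells and 0, 0, 1.06 and 1.22 CPM in CD8 cells. The CD8 sums held 2 Zbtb7b UMIs in all, against 796 in the CD4 sums, a ratio of 119 with a 95% counting interval of 33.0 to 988 (exact, counting error only). The fitted log2 fold change was -6.71 (SE 0.35, adjusted p = 4.3e-38). At equal depth 9.6 ± 1.08% of CD4 cells held a UMI, 0.12 ± 0.24% of CD8 cells and 2.25 ± 0.71% of B cell barcodes. The B cell share of Zbtb7b was above that of CD8 cells, so it is not a measure of free RNA for this gene.

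Lef1 was 966, 920, 1107 and 901 CPM in CD8 cells and 1199, 1006, 1081 and 1097 CPM in CD4 cells. The groups overlapped, and replicate 3 was higher in CD8 cells. The log2 fold change of -0.14 (SE 0.04, adjusted p = 0.014) lost its call without replicate 1 (-0.08, adjusted p = 0.37), without replicate 4 (-0.11, adjusted p = 0.15) and in DESeq2 (-0.14, adjusted p = 0.25). At equal depth, 74.5 ± 2.71% of CD8 and 76.7 ± 3.66% of CD4 cells held a Lef1 UMI.

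**Figure D1:**
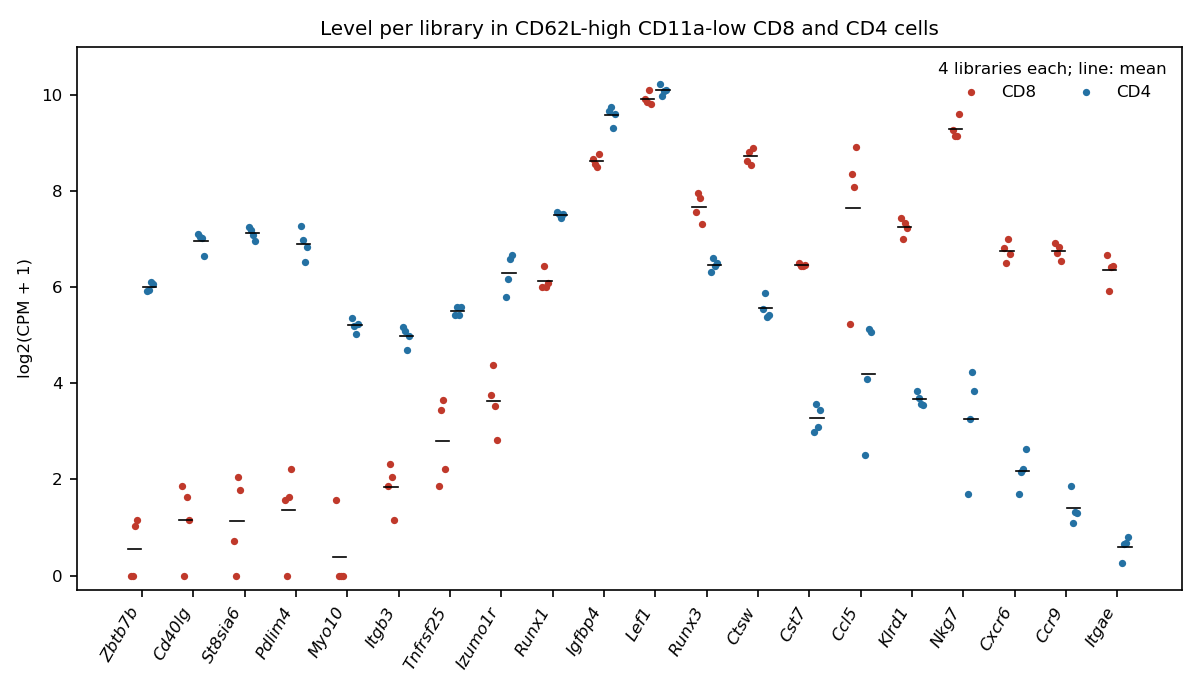
Levels of 20 genes in each library as log2(CPM + 1), with CD8 sums in red, CD4 sums in blue and lines at the mean of the 4 libraries. Zbtb7b and Cd40lg sit near 0 in CD8 cells, Ccr9 and Itgae near 0 in CD4 cells, and Lef1 overlaps.

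Genes of the CD4 lineage and of T cell help were mostly higher in CD4 cells. Of 15 tested members, 9 were higher in CD4 cells, 1 (Il6st) in CD8 cells and 5 did not pass, with a median of -0.71. Cd40lg encodes CD40 ligand, through which helper cells license B cells and dendritic cells. It was 137, 131, 129 and 99.3 CPM in CD4 cells and 2.62, 0, 2.12 and 1.22 CPM in CD8 cells, without overlap (-6.01, SE 0.22, adjusted p = 4.3e-54). Cd28, the costimulatory receptor, was 233, 221, 231 and 233 CPM in CD4 cells and 93.1 to 104 CPM in CD8 cells (-1.21, SE 0.08, adjusted p = 1.4e-28). Izumo1r, which encodes folate receptor 4, averaged 80.3 ± 21.5 CPM in CD4 and 12.3 ± 5.77 CPM in CD8 cells, and Tnfrsf4 (OX40) 20.6 ± 7.46 and 3.11 ± 1.85 CPM. Gata3, a regulator needed for CD4 commitment, differed less, at 37.1 to 43.6 CPM against 17.04 to 33.9 CPM (-0.91, SE 0.17, adjusted p = 7.7e-06). Tox (adjusted p = 0.96) and Icos (adjusted p = 0.78) did not pass.

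Genes of the CD8 lineage and of cytotoxic cells were mostly higher in CD8 cells. Of 19 tested members, 15 were higher in CD8 cells, 1 (Fasl) in CD4 cells and 3 (Gzmk, Ccl4 and Ifng) did not pass, with a median of 2.64. Nkg7, a protein of cytotoxic granules, was 617, 569, 564 and 783 CPM in CD8 cells and 2.25, 8.6, 17.9 and 13.3 CPM in CD4 cells. The groups were far apart in every library (6.06, SE 0.41, adjusted p = 0.0043), while leaving out replicate 4 put the value at 6.10 with an adjusted p of 0.05. At equal depth a Nkg7 UMI was found in 58.4 ± 5.55% of CD8 cells, 1.24 ± 0.93% of CD4 cells and 0.67 ± 0.15% of B cell barcodes.

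Ctsw, a cathepsin of cytotoxic lymphocytes, was 397, 447, 372 and 477 CPM in CD8 cells and 40.9 to 57.9 CPM in CD4 cells. It had the smallest p of all genes (3.22, SE 0.08, adjusted p = 2.4e-78). Klrd1, which encodes CD94 of the inhibitory and activating NK receptors, was 172, 128, 161 and 150 CPM in CD8 and 10.7 to 13.3 CPM in CD4 cells (3.75, SE 0.12, adjusted p = 2.9e-62). Cst7, an inhibitor of granule cathepsins, was 85.7 to 90.4 CPM against 6.97 to 10.9 CPM. The transcription factor Runx3 was 189, 249, 232 and 159 CPM against 78.3, 96.3, 86.1 and 90.1 CPM (1.27, SE 0.08, adjusted p = 3.1e-29). Eomes, which with Il2rb is known from memory-phenotype CD8 cells, was 28.6 to 41.9 CPM in CD8 and 1.72 to 5.76 CPM in CD4 cells (3.07, SE 0.26, adjusted p = 2.1e-20). Il2rb, the beta chain of the IL-2 and IL-15 receptors, was 121.2, 180, 127 and 138 CPM against 10.7, 38.4, 27.6 and 25.1 CPM (2.64, SE 0.21, adjusted p = 5.1e-05).

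The effector granule genes Gzmb and Gzma (granzymes) were low in both lineages and not tested. Gzmb was 0.66, 0, 0 and 7.33 CPM in CD8 sums, and Gzma at most 3.17 CPM. Prf1, which encodes perforin, was 49.7 to 77.8 CPM in CD8 and 32.6 to 44.0 CPM in CD4 cells (0.76, SE 0.13, adjusted p = 1.1e-06). The chemokine Ccl5 came from few cells: 873 UMIs lay in 65 of 896 CD8 cells. Its CD8 levels were 36.7, 327, 272 and 484 CPM, against 4.71 to 34.0 CPM in CD4 cells. Replicate 1 stood apart, yet the groups did not overlap (3.59, SE 0.23, adjusted p = 0.00047). The call was lost with lineages set by antibodies alone (2.48, adjusted p = 0.21) and without the library block (3.70, adjusted p = 0.053). Without cells that held a Ccl5 UMI, an alternative chosen after seeing the data, Nkg7 still differed by 6.55 (adjusted p = 0.00012) and Ccr9 by 6.12.

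**Figure D2:**
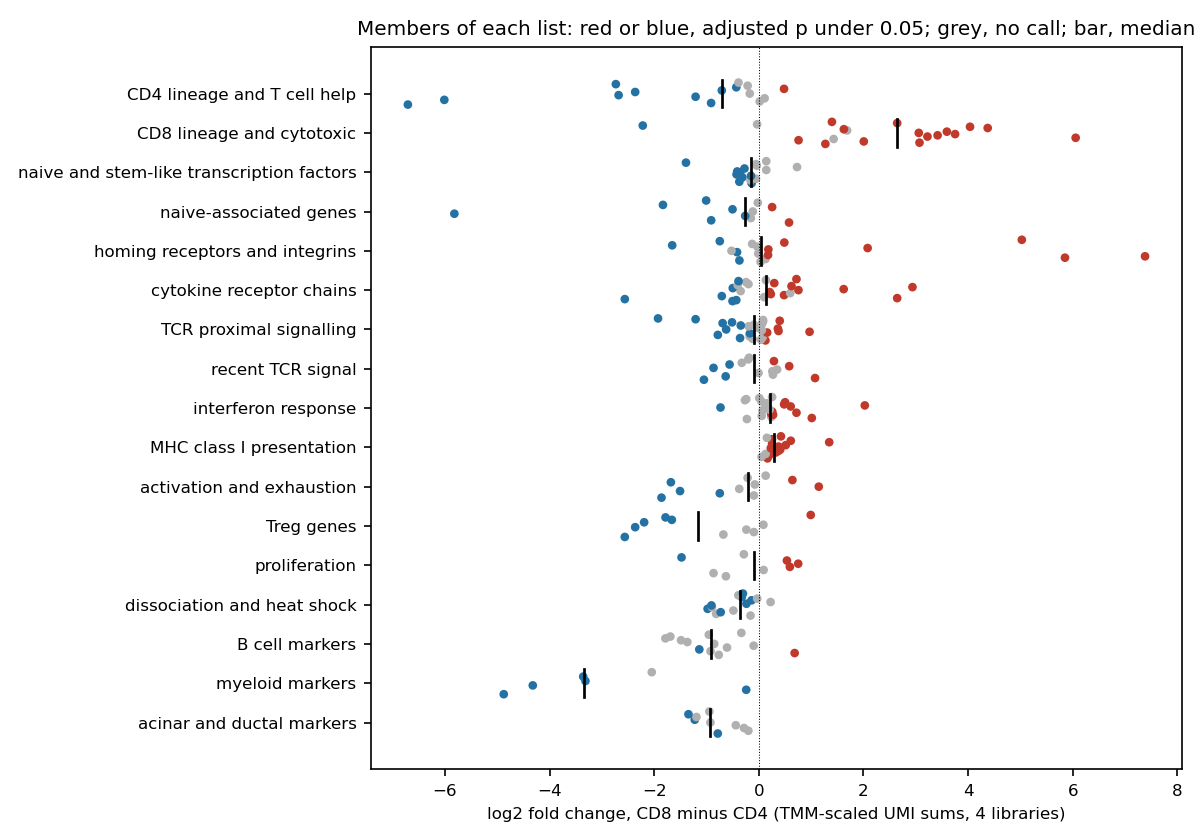
Log2 fold change, CD8 minus CD4, of the tested members of 17 gene lists, 1 point per gene, with a bar at each list's median. Red points passed as higher in CD8, blue points as higher in CD4 and grey points did not pass. The cytotoxic list lies to the right with a median of 2.64 and the help list to the left with -0.71.

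Among homing receptors and integrins, 7 of 17 tested members were higher in CD8 cells and 4 in CD4 cells, with a median of 0.03. Over all tested genes these shares were 9.4% and 7.92%. Itgae encodes CD103, the integrin chain that binds E-cadherin on epithelia. It was 101, 59.8, 84.6 and 85.5 CPM in CD8 cells and 0.21, 0.57, 0.61 and 0.74 CPM in CD4 cells, the latter from 6 UMIs (7.38, SE 0.26, adjusted p = 5.4e-57). Cxcr6, whose ligand CXCL16 is displayed on myeloid and endothelial cells, was 112.1, 89.8, 127 and 103 CPM in CD8 cells and 2.25, 3.44, 3.64 and 5.17 CPM in CD4 cells (5.03, SE 0.17, adjusted p = 1.1e-57). Neither gene overlapped between the lineages. At equal depth 15.1 ± 3.12% of CD8 cells held a Cxcr6 UMI and 11.6 ± 1.73% an Itgae UMI, against 0.47 ± 0.2% and 0.03 ± 0.06% of CD4 cells. Cxcr3, the receptor for interferon-induced chemokines, was 17.1 to 33.9 CPM in CD8 and 1.64 to 12.0 CPM in CD4 cells (2.08, SE 0.28, adjusted p = 1.2e-09). Selplg, the selectin ligand, was 492 to 601 CPM against 374 to 412 CPM. The exit receptor S1pr1 was 231 to 353 CPM in CD8 and 334 to 411 CPM in CD4 cells (-0.37, SE 0.06, adjusted p = 2.7e-07). Ccr7, the receptor for entry to lymph nodes, averaged 397 ± 27.8 and 399 ± 30.5 CPM (0.03, SE 0.06, adjusted p = 0.81).

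Ccr9 and Cxcr6 are neighbours. On GRCm38 Ccr9 lies at chr9:123767211-123783457 and Cxcr6 at chr9:123806477-123811754, within the span of Fyco1 (chr9:123789500-123851899). Fyco1 itself differed by 0.39 (SE 0.13, adjusted p = 0.023) and Lztfl1, on the other side of Ccr9, by 1.01 (SE 0.22, adjusted p = 0.00011). Farther on that side Slc6a20b (0.34, adjusted p = 0.67) and Sacm1l (-0.06, adjusted p = 0.85) did not pass, and Limd1 was higher in CD8 cells (0.56, SE 0.11, adjusted p = 1e-05). On the side of Cxcr6, Xcr1, Ccr1 and Ccr3 were at most 0.33 CPM on average in either lineage. The counting could split reads between Cxcr6 and the overlapping Fyco1.

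Promoter windows of 3 genes higher in CD8 cells and of Zbtb7b are shown because these genes were among the largest differences, the first 3 higher in CD8 and Zbtb7b higher in CD4 cells. They run 5′ to 3′ along the gene from 250 bases before its start to 50 after, from RefSeq on GRCm38.p6: Ccr9 chr9:123766961-123767260 (+), Cxcr6 chr9:123806227-123806526 (+), Nkg7 chr7:43436888-43437187 (+) and Zbtb7b chr3:89387622-89387921 (-). Capitals mark TGTGGT, the core bound by RUNX factors, and CTTTGA or CTTTGT, cores bound by TCF and LEF factors, on either strand.
Ccr9: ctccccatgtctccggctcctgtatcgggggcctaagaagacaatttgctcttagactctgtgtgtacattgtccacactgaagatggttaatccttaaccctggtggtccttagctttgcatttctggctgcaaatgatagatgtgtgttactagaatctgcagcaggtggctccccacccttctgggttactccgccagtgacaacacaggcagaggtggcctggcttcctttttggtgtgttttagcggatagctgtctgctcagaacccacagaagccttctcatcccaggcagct
Cxcr6: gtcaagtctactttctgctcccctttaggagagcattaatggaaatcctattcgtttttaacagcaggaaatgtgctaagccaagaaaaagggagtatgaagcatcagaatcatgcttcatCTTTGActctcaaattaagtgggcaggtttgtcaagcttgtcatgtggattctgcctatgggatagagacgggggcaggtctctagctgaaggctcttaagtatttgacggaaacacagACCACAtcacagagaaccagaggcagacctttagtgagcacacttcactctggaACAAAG
Nkg7: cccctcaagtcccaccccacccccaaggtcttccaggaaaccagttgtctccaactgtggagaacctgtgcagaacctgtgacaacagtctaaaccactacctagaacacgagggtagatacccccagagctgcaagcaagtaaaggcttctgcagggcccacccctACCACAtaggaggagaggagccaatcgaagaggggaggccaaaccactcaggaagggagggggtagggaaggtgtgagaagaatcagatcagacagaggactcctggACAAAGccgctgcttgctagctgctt
Zbtb7b (downstream start): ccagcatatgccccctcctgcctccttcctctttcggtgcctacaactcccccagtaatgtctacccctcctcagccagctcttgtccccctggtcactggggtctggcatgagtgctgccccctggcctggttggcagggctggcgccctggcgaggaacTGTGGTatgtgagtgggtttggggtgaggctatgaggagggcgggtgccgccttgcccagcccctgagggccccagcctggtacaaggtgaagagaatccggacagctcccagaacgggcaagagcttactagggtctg

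TGTGGT was found once each in the windows of Cxcr6, Nkg7 and the downstream Zbtb7b start, and in none of the letters of the Ccr9 window or of the window at the upstream Zbtb7b start (chr3:89393329-89393628, not printed). It was in 16.8% of all 32851 windows, in 16.4% of 821 windows of genes higher in CD8 and in 13.1% of 765 windows of genes higher in CD4 cells. CTTTGA or CTTTGT was in 31.2, 23.3 and 25.2% of these windows. Of the 86 named genes 65 had a window in the table.

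Transcription factors of naive and stem-like cells were shifted towards CD4 cells by small amounts. Of 16 tested, 0 were higher in CD8 and 9 higher in CD4 cells, with a median of -0.15. Runx1 was the member with the largest difference, at 63.6, 85.8, 63.5 and 67.2 CPM in CD8 and 188, 182, 173 and 184 CPM in CD4 cells (-1.39, SE 0.09, adjusted p = 4.5e-29). Runx1 and Runx3 thus differed in opposite directions, and neither overlapped. Ets1 differed by -0.41 (SE 0.05), Tcf7 by -0.37 (SE 0.06) and Satb1, a chromatin organiser, by -0.36 (SE 0.06), each lower in CD8 cells in 4 of 4 libraries. Klf2 (-0.16, adjusted p = 0.45) and Id3 (0.14, adjusted p = 0.49) did not pass. Of 11 naive-associated genes 2 were higher in CD8 and 6 in CD4 cells. Igfbp4 was 361 to 438 CPM in CD8 and 636 to 865 CPM in CD4 cells (-0.91, SE 0.05, adjusted p = 5.6e-34), and among cells of 2000 to 5000 UMIs the difference was -0.88 with an adjusted p of 0.059. Pdlim4, a cytoskeletal adaptor, was 90.7 to 153 CPM in CD4 and 0 to 3.66 CPM in CD8 cells (-5.82, SE 0.22). Dapl1 went the other way, at 315 to 383 CPM in CD8 and 232 to 246 CPM in CD4 cells (0.58, SE 0.06, adjusted p = 9.7e-15).

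Cytokine receptor chains divided between the lineages. Of 23 tested, 10 were higher in CD8 and 6 in CD4 cells, with a median of 0.14, beside 9.4% and 7.92% over all tested genes. Beside Il2rb, Ifngr1 was higher in CD8 cells, at 245 to 347 CPM against 174 to 230 CPM (0.62, SE 0.07, adjusted p = 6.5e-15). Il7r, the receptor for the survival cytokine IL-7, was 309, 361, 299 and 306 CPM in CD8 and 509, 493, 433 and 400 CPM in CD4 cells (-0.50, SE 0.06, adjusted p = 4.6e-13). The 2 chains of the IL-6 receptor differed in opposite directions: Il6ra by -0.71 (SE 0.09, adjusted p = 4.3e-10) and the shared chain Il6st by 0.48 (SE 0.08, adjusted p = 1.3e-07).

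Of 29 genes of proximal T cell receptor signalling, 6 were higher in CD8 and 9 in CD4 cells, with a median of -0.10. For this list and the next, the shares over all tested genes were 9.4% higher in CD8 and 7.92% higher in CD4 cells. Trat1, a transmembrane adaptor, was 29.6 to 43.9 CPM in CD8 and 110 to 145 CPM in CD4 cells (-1.93, SE 0.11, adjusted p = 6.9e-33). Cd5, which dampens receptor signals and follows their strength, was 130, 130, 152 and 165 CPM against 242, 239, 250 and 285 CPM (-0.78, SE 0.07, adjusted p = 4.3e-18). Ptpn22, a phosphatase that restrains receptor signals, was 134, 108, 108 and 109 CPM in CD8 and 55.9 to 74.5 CPM in CD4 cells (0.97, SE 0.10, adjusted p = 8.1e-16). Zap70 (adjusted p = 0.81) and Lat (adjusted p = 0.063) did not pass. Among 14 genes that follow recent receptor signals, 3 were higher in CD8 and 4 in CD4 cells. The related receptors Nr4a1 and Nr4a2 differed in opposite directions, by -1.05 (SE 0.11, adjusted p = 4.9e-09) and 1.07 (SE 0.18, adjusted p = 4.6e-07). A filter on activation and Treg genes removed cells with a UMI of Foxp3, Ikzf2, Il2ra, Ctla4, Pdcd1, Lag3 or Cxcr6. Without thinning, 32.3% of CD8 and 1.14% of CD4 cells held a Cxcr6 UMI, so the filter also selected on a lineage difference. With this filter the Nr4a1 call was lost (-1.04, adjusted p = 0.31), as it was without the library block (-1.01, adjusted p = 0.093). Nr4a2 did not pass with CD11a of 20 to 80 (1.53, adjusted p = 0.22).

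Interferon-response genes and MHC class I genes were shifted towards CD8 cells. Of 22 interferon-response genes 9 were higher in CD8, 1 (Ifi27l2a) in CD4 and 12 did not pass, with a median of 0.22. Ly6a, which encodes Sca-1, was 1693, 1753, 2210 and 2362 CPM in CD8 and 379, 355, 605 and 729 CPM in CD4 cells (2.03, SE 0.13, adjusted p = 0.0035). Gbp2 was 155, 341, 326 and 283 CPM against 96.9, 153, 205 and 220 CPM (0.72, SE 0.08, adjusted p = 1.7e-09), and replicate 1 was lowest in both lineages. Gbp2 did not pass without the library block (adjusted p = 0.33) or with the filter on activation and Treg genes, Cxcr6 among them (adjusted p = 0.081). Ifi27l2a was 239 to 363 CPM in CD8 and 376 to 633 CPM in CD4 cells (-0.73, SE 0.06). Classical genes such as Isg15 (0.24, adjusted p = 0.11), Irf7 (0.05, adjusted p = 0.80) and Ifit1 (-0.23, adjusted p = 0.66) did not pass.

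Of 16 MHC class I presentation genes, 13 were higher in CD8 cells, 0 in CD4 cells and 3 (H2-D1, Tap1 and H2-T23) did not pass, with a median of 0.29. The largest difference was in H2-Q6, a class Ib gene, at 65.5 to 75.7 CPM against 19.3 to 41.2 CPM (1.34, SE 0.13, adjusted p = 8.3e-16). H2-Q6 and H2-Q7 are near-identical copies, so their split is uncertain. Psmb8, a subunit of the immunoproteasome, was 647, 660, 770 and 794 CPM in CD8 and 474, 478, 610 and 667 CPM in CD4 cells. It was higher in CD8 cells within each library, although the groups overlapped across libraries (0.41, SE 0.05, adjusted p = 9.1e-13). B2m, the light chain of class I, differed by 0.19 (SE 0.03, adjusted p = 5.5e-08).

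Several of the largest differences lay in genes outside these lists. Adgrg5, an adhesion G protein-coupled receptor, was 37.9 to 86.7 CPM in CD8 and at most 0.82 CPM in CD4 cells (6.48, SE 0.29, adjusted p = 6.7e-46). Sytl3, a synaptotagmin-like protein of vesicle transport, was 35.9 to 40.6 CPM in CD8 and 0.62 to 2.29 CPM in CD4 cells. Tmem108, Kcnc1, a potassium channel, and Adgrb2, genes better known from neurons, were 37.9 to 43.3, 21.9 to 27.5 and 13.96 to 28.1 CPM in CD8 cells and at most 2.25 CPM in CD4 cells. Lcn4 and Cxxc5, a CXXC zinc finger protein, averaged 45.2 ± 13.5 and 30.2 ± 2.86 CPM in CD8 and 1.84 ± 1.02 and 1.95 ± 1.43 CPM in CD4 cells. The unnamed locus Gm44174 had 89 UMIs in CD8 and 1 in CD4 sums, a ratio of 296 with a counting interval of 51.9 to 11839.

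In CD4 cells the largest differences after Zbtb7b included St8sia6, a sialyltransferase, at 124 to 151 CPM against 0 to 3.17 CPM in CD8 cells (-6.39, SE 0.23, adjusted p = 6.1e-57). Myo10, an unconventional myosin, was 31.5 to 40.2 CPM in CD4 cells and had 3 UMIs in the CD8 sums, a ratio of 46.2 with a counting interval of 15.7 to 225. The integrin chain Itgb3 was 24.9 to 34.8 CPM against 1.22 to 3.99 CPM (-3.50, SE 0.31, adjusted p = 1.6e-19). Tnfrsf25, the receptor DR3, was 41.6 to 47.2 CPM against 2.62 to 11.6 CPM. Ecm1, Igsf23, Klhl5 and A630023P12Rik averaged 35.1, 44.7, 42.7 and 66.6 CPM in CD4 cells and 3.05, 4.89, 5.34 and 10.6 CPM in CD8 cells, each higher in CD4 cells in 4 of 4 libraries.

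The list of activation and exhaustion genes did not move as a group: of 11 tested, 2 were higher in CD8 and 4 in CD4 cells. Of its 18 members 7, among them Lag3, Tigit and Havcr2, were too low to test. Cxcr6, Nkg7 and Ccl5, activation markers counted in other lists above, were higher in CD8 cells (5.03, 6.06 and 3.59). Cd44, Pdcd1 and S100a4 of this list were higher in CD4 cells. Cd44, an adhesion receptor that rises on activation, averaged 20.7 ± 6.67 CPM in CD8 and 33.5 ± 5.37 CPM in CD4 cells, and its call was lost without replicate 1 (-0.52, adjusted p = 0.12) and in DESeq2 (-0.72, adjusted p = 0.15). S100a11, a calcium-binding protein, averaged 63.7 ± 8.42 and 30.3 ± 5.96 CPM. Of 10 tested Treg genes 5 were higher in CD4 cells and 1, Nt5e, in CD8 cells, although cells with a Foxp3 UMI had been removed on the CD4 side only. Il2ra was 6.56, 16.1, 18.2 and 17.7 CPM in CD4 and 1.22 to 2.62 CPM in CD8 cells, and did not pass in replicates 1 and 2 alone (adjusted p = 0.064) or with CD11a of 20 to 80 (adjusted p = 0.078). Of 8 proliferation genes 3 (Mcm3, Mcm5 and Mcm6) were higher in CD8 and 1 (Stmn1) in CD4 cells. None of these 4 calls held in DESeq2 (adjusted p = 0.12, 0.16 and 0.54 for the Mcm genes and 0.083 for Stmn1). The 83 cytosolic ribosomal protein genes had a median of 0.108, with 53 higher in CD8 and 2 in CD4 cells. Beside all these counts, 9.4% of all tested genes were higher in CD8 and 7.92% higher in CD4 cells.

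RNA-quality genes and markers of other cells moved with the lineages. Of 14 dissociation and heat-shock genes 7 were higher in CD4 cells and 0 in CD8 cells, and their summed level was 4893 to 10089 CPM in CD8 and 7400 to 12542 CPM in CD4 sums, lowest in replicate 3 on both sides. Hspa1a, a heat-shock chaperone, was 1722, 2523, 605 and 1412 CPM in CD8 and 3014, 4249, 1516 and 3380 CPM in CD4 cells (-0.98, SE 0.14, adjusted p = 0.031). B cell markers summed to 533, 2699, 541 and 405 CPM in CD8 and 1251 to 2147 CPM in CD4 sums, with replicate 2 standing apart in CD8 cells, and 11 of 13 did not pass. Acinar and ductal markers summed to 4.9 to 160 and 36.9 to 538 CPM, with 0 of 9 higher in CD8 and 3 in CD4 cells; Prss2, Try4 and Ctrb1 lost the call without replicate 2 and without replicate 4. The part of these transcripts in the other results was not tested beyond the 2 alternatives below. Of the stromal and endothelial markers only Pecam1 was tested, which T cells also express, and it was higher in CD4 cells (-0.71, SE 0.09).

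Myeloid markers summed to 112.1 to 139.6 CPM in CD8 and 157 to 398 CPM in CD4 sums, with 5 of 6 tested members higher in CD4 cells, and Csf1r, Cd68, Itgam, Adgre1, Fcgr3 and Mrc1 too low to test. Their UMIs lay in few barcodes. C1qa did not pass in DESeq2 (adjusted p = 0.69). It had 227 UMIs in 13 CD4 barcodes, 127 of them in 1 barcode, and was 0.21, 0.57, 28.5 and 48.4 CPM by library. Lyz2, a myeloid lysozyme, was 59.8, 7.45, 75.5 and 62.01 CPM in CD4 sums, from 722 UMIs in 32 barcodes (-4.88, SE 0.29, adjusted p = 5.6e-33), and it did not pass without the library block (-4.81, adjusted p = 0.055). Ins2, the insulin gene, had 435 UMIs in 75 of 3599 CD4 cells, and its level was 111 CPM in replicate 3 and 3.32 to 9.63 CPM in the other libraries. Without barcodes holding UMIs of myeloid, endocrine or acinar genes, an alternative chosen after seeing the data, Lyz2 and the C1q genes were too low to test and Ins2 did not pass (-0.57, adjusted p = 0.49). The same alternative called 1590 genes, 878 higher in CD8, with Ccr9 at 5.80, Cxcr6 at 5.06 and Zbtb7b at -6.69. Without barcodes holding B cell UMIs 1188 genes were called.

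The window on CD11a was divided at 70 counts to see how the genes varied inside the population, with no test since CD11a set the gate. CD8 cells numbered 309 below and 587 above, CD4 cells 1984 and 1615. Ccr9 in CD8 cells was 157, 134, 123 and 109 CPM in the lower and 109, 89.8, 108 and 84.6 CPM in the upper division, lower above 70 in each library. Lef1 was also lower above 70 in all libraries of both lineages, at 1043 ± 92.1 below and 942 ± 98.8 CPM above in CD8 and 1167 ± 88.4 and 1000.3 ± 140 CPM in CD4 cells. Nkg7 in CD8 cells averaged 639 ± 89.7 and 631 ± 116 CPM and was higher above 70 in 2 of 4 libraries. In CD4 cells Il2rb averaged 13.4 ± 5.49 and 45.4 ± 31.5 CPM and Cxcr3 2.24 ± 1.46 and 13.6 ± 13.1 CPM, each higher above 70 in 4 of 4 libraries. Zbtb7b in CD4 cells averaged 65.1 ± 5.71 and 61.6 ± 2.8 CPM.

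Cells just inside and just outside the thresholds are described without a test. CD8 cells with CD11a of 110 to 120 (77 cells) and of over 120 to 130 (59 cells) had 96.1 and 117 CPM of Ccr9 and 632 and 624 CPM of Nkg7. CD4 cells at the same counts (174 and 124) had 61.4 and 43.8 CPM of Zbtb7b and 6.53 and 50.1 CPM of Nkg7. At CD62L of 8 to 9 and 10 to 11, Ccr9 was 109 and 137 CPM in 46 and 38 CD8 cells. Cells with 1 and with 2 UMIs of Cd8 genes (63 and 65 cells) had 76.5 and 90.3 CPM of Ccr9. Few cells lay near the antibody CD4 limits, 7 CD8 cells at 15 to 19 counts and 9 CD4 cells at 40 to 49.

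The same contrast was then set beside that in CD62L-low CD11a-high cells of the same libraries, 1850 CD8 and 4791 CD4 cells chosen by the same lineage rules. The difference of the contrasts passed for 1137 of 10653 genes (10.7%) in a fit over 16 sums, 551 with a CD8 to CD4 ratio higher in the naive phenotype (5.17%) and 586 with a lower one (5.5%). The count was 506 without replicate 3 and 422 without replicate 4. In the CD62L-low CD11a-high cells themselves 5045 genes (47.4%) were called.

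Several homing receptors differed. Ccr9 averaged 108 and 1.70 CPM in naive-phenotype CD8 and CD4 cells and 10.6 and 3.30 CPM in CD62L-low CD11a-high CD8 and CD4 cells, a difference of contrasts of 4.31 (SE 0.50, adjusted p = 4.4e-05). Cxcr6 averaged 108 and 3.63 CPM in the naive phenotype and 187 and 104 CPM in the CD62L-low CD11a-high phenotype (4.11, SE 0.30, adjusted p = 9.5e-07). Itgae went from 82.7 and 0.53 CPM to 55.0 and 17.4 CPM (5.86, SE 0.85, adjusted p = 0.002), and Adgrg5 from 57.8 and 0.54 CPM to 9.18 and 2.91 CPM (4.91, SE 0.68, adjusted p = 0.00022). Myo10 fell in CD4 cells from 36.0 to 3.32 CPM, against 0.49 and 1.87 CPM in CD8 cells (-4.75, SE 0.63, adjusted p = 3.3e-05).

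Of the cytotoxic list, Nkg7, Ctsw and Cst7 had a wider contrast in the naive phenotype. Nkg7 was 633 and 10.5 CPM in naive-phenotype CD8 and CD4 cells and 1782 and 271 CPM in the others (3.27, SE 0.38, adjusted p = 0.00072). Ctsw (1.90, SE 0.13, adjusted p = 7.2e-09) and Cst7 (2.31, SE 0.17, adjusted p = 7.2e-09) differed likewise. Klrd1 went the other way (-1.08, SE 0.29, adjusted p = 0.03), and Klre1, another NK receptor gene, averaged 110 CPM in CD62L-low CD11a-high CD8 cells and at most 1.42 CPM in the other groups (-6.31, SE 1.13, adjusted p = 0.00085; adjusted p = 0.18 without the library block). For the lineage factors the difference was -1.62 for Zbtb7b (SE 0.83, adjusted p = 0.24), 0.20 for Runx3 (SE 0.13, adjusted p = 0.35), -0.15 for Runx1 (SE 0.14, adjusted p = 0.53) and 0.66 for Cd40lg (SE 0.61, adjusted p = 0.57), none past the test. Satb1 changed sign, from -0.37 to 0.58 (difference -0.95, SE 0.11, adjusted p = 9.9e-06), and Il6ra went from -0.69 to -3.08 (difference 2.39, SE 0.44, adjusted p = 0.0086).

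**Figure D3:**
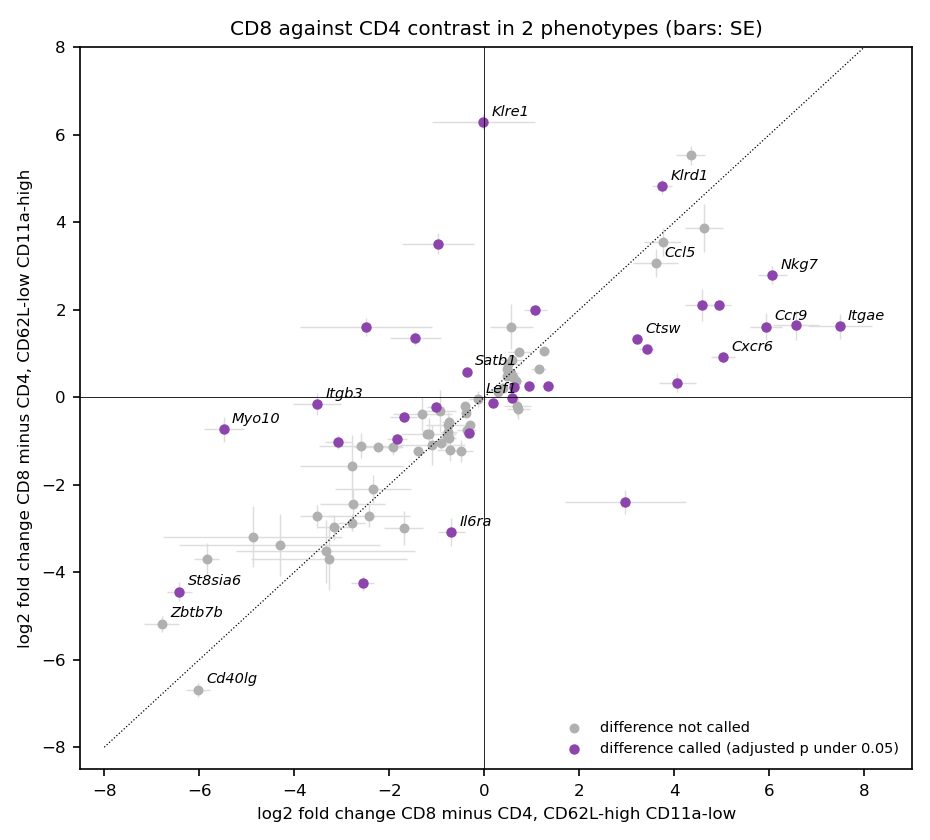
Log2 fold change CD8 minus CD4 of named genes with UMIs in all groups, in CD62L-high CD11a-low cells (horizontal) and CD62L-low CD11a-high cells (vertical), with SE bars and a dotted line of equality. Purple points passed the test of the difference; Itgae, Ccr9 and Cxcr6 lie far below the line and Klre1 far above it.

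The T cell receptor libraries gave a measure the rule did not use. A TRB chain was read in 85.8 to 92.5% of CD8 and 85.2 to 88.9% of CD4 cells. Near-identical TRAV segments can exchange reads, so alpha segments were counted by family. Of 16 TRAV families 6 (37.5%) differed by edgeR. TRAV16 made up 9.75, 9.09, 11.8 and 10.7% of CD8 alpha chains and 3.03, 2.79, 4.24 and 4.03% of CD4 alpha chains (1.55, SE 0.17, adjusted p = 5.6e-10). TRAV12 was also higher in CD8 cells in 4 of 4 libraries, at 11.9 ± 3.03% against 6.37 ± 1.25% (SD, n = 4). TRAV14 was 5.88 ± 1.6% in CD8 and 12.0 ± 2.59% in CD4 cells, TRAV4 2.31 ± 1.78 and 5.62 ± 0.78%, TRAV5 5.25 ± 1.59 and 8.74 ± 0.66%, and TRAV10 2.64 ± 0.22 and 4.42 ± 1.46%. TRAV10 was higher in CD8 cells in replicate 2. Without replicate 1, which held 277 of the CD8 alpha chains, only TRAV16 remained called; TRAV12 and TRAV14 had an adjusted p of 0.054 there, and TRAV4, TRAV5 and TRAV10 of 0.19. TRAV10 also lost its call without replicate 3.

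Of 19 TRBV segments 14 (73.7%) differed. TRBV5 was 5.2, 9.52, 6.25 and 5.95% of CD8 beta chains and 11.7, 11.4, 11.6 and 11.7% of CD4 beta chains (-0.92, SE 0.16, adjusted p = 8.4e-05). TRBV2 (1.36 ± 0.87% against 5.19 ± 0.36%), TRBV1 (4.40 ± 1.46 against 8.59 ± 1.37%), TRBV15 (3.29 ± 0.59 against 6.85 ± 0.64%) and TRBV31 (3.23 ± 1.36 against 6.60 ± 0.92%) were also higher in CD4 cells, without overlap. TRBV3 (6.07 ± 2.77 against 2.34 ± 0.54%), TRBV29 (5.80 ± 1.7 against 2.43 ± 0.80%), TRBV14 (6.13 ± 1.19 against 3.12 ± 0.93%), TRBV13-3 (7.22 ± 2.21 against 4.25 ± 0.56%) and TRBV19 (9.54 ± 2.59 against 6.21 ± 0.57%) were higher in CD8 cells in 4 of 4 libraries. TRBV17 was higher in CD8 cells in 3 of 4 libraries. Calls were lost for TRBV17 without replicate 2, 3 or 4, for TRBV19 without replicate 3 or 4, for TRBV13-3 without replicate 1 and for TRBV13-2 without replicate 1, 2 or 4. TRBV12-1 was 1.95 to 9.52% of CD8 and 0.54 to 1.08% of CD4 beta chains (2.30, SE 0.49, adjusted p = 9e-05). TRBV12-2 (3.09, SE 0.58) and TRBV13-2 (-0.83, SE 0.33) are uncertain, since a joint label of these 2 segments held 11.3% of CD8 and 12.6% of CD4 beta chains and did not differ by the test (adjusted p = 0.42). CDR3 length was alike: beta chains averaged 13.84 ± 0.1 residues in CD8 and 13.93 ± 0.1 in CD4 cells.

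**Figure D4:**
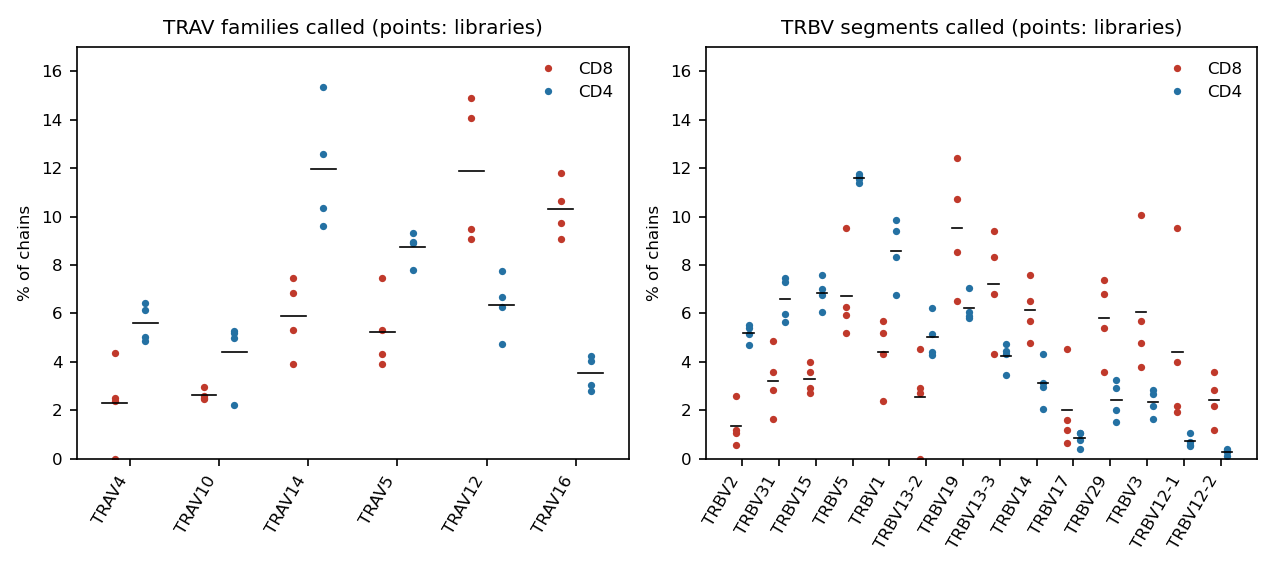
Share of alpha (left) and beta (right) chains, in percent, for each called TRAV family and TRBV segment, with 1 point per library, CD8 in red, CD4 in blue and lines at the means. TRAV16 is at 9.09 to 11.8% in CD8 and 2.79 to 4.24% in CD4 cells, and TRBV2 is lower in every CD8 library than in any CD4 library.

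Clonal expansion was low in both lineages. Cells whose paired receptor was found in at least 2 cells of the library made up 7.26, 4.35, 0.72 and 2.04% of CD8 cells (of 248, 69, 139 and 147 with a paired receptor). They made up 6.67, 4.95, 2.44 and 2.96% of CD4 cells (of 960, 303, 614 and 608). The lineages overlapped, and the difference of -0.66 ± 0.96 percentage points gave p = 0.25 in a two-sided exact permutation test over 4 libraries, where 0.125 is the smallest p possible. The direction reversed, to 1.36 points, when clones were counted within each lineage after thinning to equal cells. In CD62L-low CD11a-high cells the shares were 57.7 to 82.1% for CD8 and 51.6 to 59.2% for CD4 cells. Of 28 clonotypes with at least 2 naive-phenotype cells 0 held cells of both lineages, which allows a share of up to 10.7%, and of 518 clones over both phenotypes 1 did.

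There were 3.74, 4.59, 4.18 and 4.07 CD4 cells per CD8 cell in the naive phenotype and 2.81, 2.30, 2.40 and 2.83 in CD62L-low CD11a-high cells. The ratio was higher in the naive phenotype in 4 of 4 libraries, without overlap, by 1.56 ± 0.60 (SD, n = 4; exact two-sided permutation p = 0.125, the smallest possible). These ratios count cells that passed the gates, and the CD8 gate required 2 UMIs of Cd8 genes. In both phenotypes the CD4 gate left out cells with a UMI of Cd8 genes or of Foxp3. The ratios are thus not those of all CD4 cells, and ratios with Foxp3-positive cells included are not given.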

How the data were processed

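The values analysed were raw UMI counts per gene, per antibody tag and per cell barcode, as deposited by the authors in 1 matrix per replicate; the matrix software named in the deposited file headers is Cell Ranger, version 4.0.0. The contig tables deposited with the receptor libraries give counts of UMIs and reads per assembled chain. The submitters' processing notes name mm10 and Seurat, with no role. The antibody counts were read from the mRNA matrices. The cells, markers, gene lists and tests were chosen with earlier results of these data known.

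UMIs were summed per library and lineage, scaled by TMM after edgeR's default filter on low counts, and tested in edgeR 4.0.16 by quasi-likelihood with the library as block and Benjamini-Hochberg adjustment over all genes tested. The difference between phenotypes was fitted over 16 sums, and chain counts in the same way with the total of chains as library size. Both lineages of a replicate came from the same library, and deviations of same-numbered sums correlated at 0.151 to 0.21. DESeq2 1.42.0 was an alternative. Named genes were the 3 markers, the 15 largest differences in each direction (called, same direction in 4 libraries, at least 20 CPM on the higher side), up to 4 called members of each list with the smallest p, the 6 largest differences between phenotypes in each direction and every called receptor segment. Other list members are given as values of a described list. Shares per cell were thinned to 1500 UMIs. Genes used by the gates were not tested. The fits were tested on simulated data.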

Additional observations from a re-analysis of the deposited data

Results flagged for a closer look

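In 216 groups of 4 libraries, 19 had a highest or lowest library far from the other 3; chance alone flags about 1 in 20 groups. In CD8 sums the libraries that stood apart were the lowest for Cxxc5 (25.9 CPM) and the highest for Myo10 (1.97), Ecm1 (6.11), Runx1 (85.8), Ets1 (572), Il7r (361), Ptpn22 (134) and Bst2 (239). In CD4 sums they were the lowest for Igsf23 (34.6 CPM), Tnfrsf4 (9.43), Cd28 (221), Dusp1 (135) and Junb (406), and the highest for Gm44174 (0.57), Ins2 (111), Bst2 (170), Try4 (69.4) and Ctrb1 (155). TRAV10 had a lowest share of 2.24% among CD4 alpha chains. Replicate 3 was the library that stood apart for Dusp1, Junb and Ins2, and replicate 4 for Bst2 in both lineages.

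The CD8 against CD4 contrast differed between the naive phenotype and CD62L-low CD11a-high cells by the interaction test in edgeR, most for 12 genes. It was higher in the naive phenotype for Itgae (5.86), Zan (5.37), Adgrg5 (4.91), Ccr9 (4.31), Cxcr6 (4.11) and Cxxc5 (3.74). It was lower for Cx3cr1 (-7.37), Spc25 (-6.45), Klre1 (-6.31), Myo10 (-4.75), Lrrk1 (-4.49) and Myadm (-4.09). Cx3cr1 and Spc25 had 0 UMIs in naive-phenotype CD8 cells, so their fitted values depend on the prior count. Their naive-phenotype CD4 sums held 14 and 17 UMIs, which is 1.4-fold and 1.7-fold above a floor of 3 UMIs over the CD8 group. These 2 values leave out the counting error of the CD4 UMIs and are not lower limits. Klre1 and Myadm had 2 and 1 UMIs in naive-phenotype CD8 cells. Zan, Cx3cr1, Spc25 and Myadm lost the call without at least 1 library, and Klre1 without the library block (adjusted p = 0.18).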

How the results depend on the processing

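Of 86 named genes 55 kept direction and call in every alternative that gave a value, 31 lost the call in at least 1, and Prss2 alone reversed (0.044, adjusted p = 0.97, with CD11a of 20 to 80). Over the alternatives the log2 fold change was 5.24 to 6.53 for Ccr9, 5.42 to 7.23 for Nkg7, -0.22 to -0.07 for Lef1 and -10.01 to -5.72 for Zbtb7b. The 1577 calls (856 higher in CD8, 721 in CD4) became 612 (356 and 256) in DESeq2 and 1007 (553 and 454) without the replicate block. They became 836 (465 and 371) in replicates 1 and 2 alone and 916 (471 and 445) in replicates 3 and 4 alone. With CD11a of 20 to 80 they were 874 (469 and 405), and without cells holding UMIs of activation or Treg genes 999 (544 and 455). The latter filter includes Cxcr6, which was found in a larger share of CD8 than of CD4 cells. Leaving out 1 library at a time gave 1055 to 1595 calls (579 to 834 and 476 to 761), with the fewest without replicate 1. Apart from DESeq2 and the fit without block, these settings use fewer cells or libraries, and some also change which kinds of cells enter. Why the counts changed was not tested for any setting. The share of calls higher in CD8 cells was 54.3%, and 46.1% with library size alone or with every gene that had 1 UMI. Leaving out 1 library gave 422 to 1160 genes (506 without replicate 3, 422 without replicate 4) for the difference between phenotypes, 1 to 7 TRAV families, 11 to 12 TRBV segments, -1.08 to -0.31 points for the share in expanded clones and 1.32 to 1.77 for the CD4 to CD8 ratio difference. With clones counted within each lineage after thinning to equal cells, the difference in expanded share reversed to 1.36 points. Depth limits genes at a few CPM: 1 UMI is about 2 CPM in the smallest CD8 sum.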
